A study of Mus musculus with 12 samples.

Results

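The 10 genes described here encode components of basement membranes and of the pericellular matrix, the thin shell around each chondrocyte: Col4a1, Col4a2, Col15a1, Col18a1, Nid1, Nid2, Lama4, Lamb1, Lamc1 and Hspg2. They were chosen by name, as 10 of the 17536 genes listed in 1 RNA-seq expression table. The table holds 12 libraries, 3 for each of 4 groups. The cells were chondrocytes of the superficial zone (SFZ) or the deep zone (DZ) of articular cartilage, taken from mice aged 5 days on a C57BL/6 background (C57BL/6J in the study's methods). R3-Cntl mice were Runx3 fl/fl. R3-cKO mice were Col2a1-Cre; Runx3 fl/fl, in which Cre is driven by the Col2a1 promoter and acts in chondrocytes, so that all animals carried the floxed Runx3 alleles and only R3-cKO animals carried Cre. In the study's methods, SFZ cells came off in a first digestion, and DZ cells in a longer collagenase digestion of the remaining cartilage. Zone and digestion step therefore cannot be told apart in these libraries. Both kinds of cell were plated on fibronectin-coated dishes, and the methods state monolayer culture, in medium with serum, for all experiments.

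Basement membranes are built from a laminin network and a type IV collagen network that nidogens and the heparan sulphate proteoglycan perlecan link together. Each laminin is a trimer of an alpha, a beta and a gamma chain, and type IV collagen is most often assembled from alpha 1 and alpha 2 chains. Collagens XV and XVIII, called multiplexins, are proteoglycans of the basement membrane zone, and the C-terminal fragment of collagen XVIII is endostatin. Articular chondrocytes have no continuous basement membrane, but perlecan, laminins, nidogens and type IV collagen are known components of their pericellular matrix. Capillary endothelial cells, pericytes, adipocytes, muscle fibres and Schwann cells make the same proteins.

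In mm9, Col4a1 lies on the minus strand at chr8:11198423-11312826 and Col4a2 on the plus strand at chr8:11312805-11449287. The 2 genes are transcribed away from each other and their annotated starts overlap by 22 bases, printed here because they show how close the start sites of the collagen pair are (plus strand of mm9, chr8:11312805-11312826, between the RefSeq start sites of both genes):
Col4a2 start to Col4a1 start: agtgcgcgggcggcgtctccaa
The other members lie at chr4:47221033-47326039 (Col15a1, plus strand), chr10:76514923-76629293 (Col18a1, minus), chr13:13529869-13604542 (Nid1, plus), chr14:20570479-20631009 (Nid2, plus), chr10:38685321-38829994 (Lama4, plus), chr12:31950099-32014509 (Lamb1, plus), chr1:155066052-155179916 (Lamc1, minus) and chr4:137024634-137126545 (Hspg2, plus). Col18a1 overlaps Slc19a1, a folate transporter gene on the opposite strand, and whether reads were assigned by strand is not given in the sources used here.

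Promoter windows from RefSeq (GRCm38.p6, placed on mm9 by an exact and single match) were found for 7 of the 10 members, in 8 windows because Col18a1 has 2 start sites. Nid2, Lama4 and Lamc1 had no entry. The 250 bases before each start were searched on both strands for the letters TGTGGT or TGCGGT, the core that Runx proteins recognise, and these stood in 2 of 8 member windows and in 18.6% of 32851 RefSeq windows. With TGTGGC and TGCGGC added, the count was 5 of 8 against 38.0%. The Col15a1 window and 1 of the 2 Col18a1 windows are printed because these genes have the largest estimates of the members in the DZ genotype and the zone comparison described below. The other Col18a1 window, at the upstream start, holds none of the searched letters. Capitals mark the searched letters, which read TGTGGC at -242 and -46 from the Col15a1 start, and TGTGGT on the strand opposite to the gene (printed as ACCACA) at -12 from the second, downstream start of Col18a1. The Col15a1 window is chr4:47220634-47220883 (plus strand) and the Col18a1 window chr10:76576451-76576700 (minus strand), both mm9:
Col15a1: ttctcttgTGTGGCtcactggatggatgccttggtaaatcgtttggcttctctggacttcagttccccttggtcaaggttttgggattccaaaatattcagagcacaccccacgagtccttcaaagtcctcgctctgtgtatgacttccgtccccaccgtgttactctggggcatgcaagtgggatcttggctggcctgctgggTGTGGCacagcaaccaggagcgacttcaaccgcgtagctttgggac
Col18a1, downstream start: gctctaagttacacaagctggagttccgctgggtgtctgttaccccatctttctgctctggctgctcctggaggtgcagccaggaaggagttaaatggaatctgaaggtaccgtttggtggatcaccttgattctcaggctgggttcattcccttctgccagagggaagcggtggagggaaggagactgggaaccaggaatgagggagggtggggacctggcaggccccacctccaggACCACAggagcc
A match of letters describes the window only and was not tested for binding.

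Several measurements of the libraries bear on the values below. The column sums lay between 392241 and 429213 FPKM (fragments per kilobase, scaled to sequencing depth), and the smallest steps in the values correspond to 25400000 to 27800000 TMM-scaled fragments per library. Runx3, the targeted gene, was at 5.98 to 12.67 FPKM in R3-Cntl and 3.42 to 15.95 FPKM in the libraries labelled R3-cKO, so it was not lower there. The value covers the whole gene, and whether the floxed exons were lost was not tested. The summed FPKM of the Y-linked genes Ddx3y, Eif2s3y, Kdm5d and Uty was 0.01 to 0.06 in replicates 2 and 3 of R3-cKO in both zones and 12.1 to 52.4 in the other 8 libraries. Sex may therefore be confounded in part with genotype in every genotype comparison below, including that of Col15a1, and its part was not tested. All 14 chondrocyte markers examined were detected, with summed levels of 5761 to 17759 FPKM in SFZ and 17571 to 40586 FPKM in DZ.

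Hspg2, which encodes perlecan, and Nid2, which encodes nidogen-2, were the most abundant members in every group. The mean level of Hspg2 was 131 ± 11.5 FPKM in R3-Cntl SFZ, 112 ± 34.2 in R3-cKO SFZ, 148 ± 8.53 in R3-Cntl DZ and 143 ± 4.94 in R3-cKO DZ (SD, n = 3). In R3-Cntl SFZ it stood at rank 460 among 11505 genes whose mean was 1 FPKM or more. The ranges of Hspg2 and Nid2 overlapped in each group, and both stood clear of the third member in the order, except that Hspg2 (77.5 to 145.86 FPKM) overlapped Col4a2 (30.58 to 84.06 FPKM) in R3-cKO SFZ. Col18a1 was lowest in each group, at 12.5 ± 3.82 FPKM in R3-Cntl SFZ and 1.22 ± 0.347 FPKM in R3-cKO DZ, although its range overlapped that of the neighbouring member. The neighbours below these 2 genes overlapped in range within each group, with 1 exception: Lama4 and Lamb1 in R3-cKO DZ, at 12.29 to 16.06 and 2.46 to 5.3 FPKM. The lowest value of any member, 0.23 FPKM for Lamb1 in R3-Cntl DZ 1, corresponds to about 35 fragments, for which counting error alone gives a coefficient of variation of 16.9%.

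**Figure D1:**
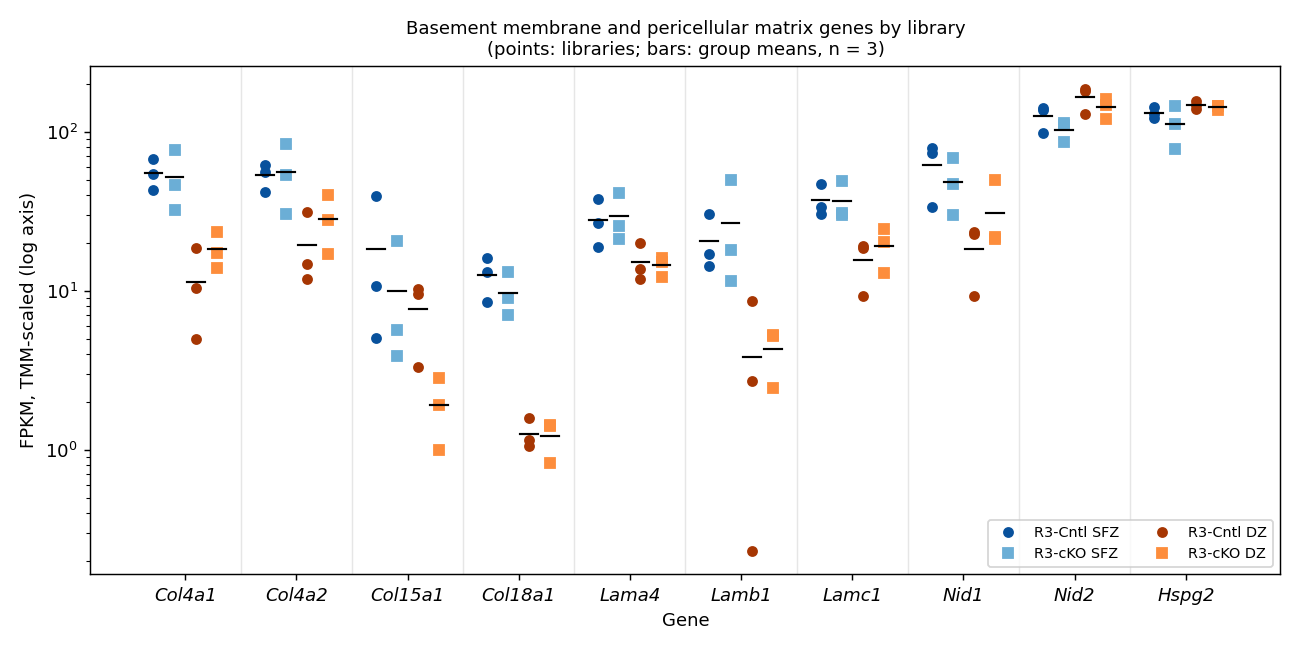
Level of each of the 10 genes in the 12 libraries, in FPKM on a log axis. Points are libraries, bars are group means (n = 3) and colours are the 4 groups. Nid2 and Hspg2 lie at 77.5 to 186.47 FPKM throughout, whereas Col4a1, Col18a1, Lamb1 and Lamc1 separate by zone.

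To compare these genes between cells of both zones, DZ was set against SFZ over both genotypes (6 against 6 libraries, with genotype as a term). By the study's methods these were cultured cells from digested cartilage, so the values do not show expression within the tissue itself. The study describes the SFZ and DZ cells as obtained from individual littermates, so SFZ and DZ libraries may share animals. Which libraries share an animal is not given in the sources used here, and this fit treats all libraries as separate. 7 members were lower in DZ, namely Col4a1, Col4a2, Col18a1, Lama4, Lamb1, Lamc1 and Nid1, and Nid2 was higher. Nid2 and Hspg2 were the only members whose estimate was above 0. The background was high: 23.2% of the 11765 genes tested passed the same threshold (adjusted p under 0.05, limma with Benjamini-Hochberg adjustment). Genes that passed and were lower in DZ made up 18.9% of all genes tested, and those that were higher 4.3%. The median log2 fold change (DZ minus SFZ, of FPKM + 1) was -1.21 over the members and -0.14 over all genes, and 8 of 10 members against 72.0% of genes had an estimate below 0. The FPKM of SFZ and DZ libraries did not overlap for 4 members, all lower in DZ, as for 9.71% of genes. In bulk RNA, fewer cells of a type and less RNA per cell cannot be told apart, and this holds for each difference below.

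**Figure D2:**
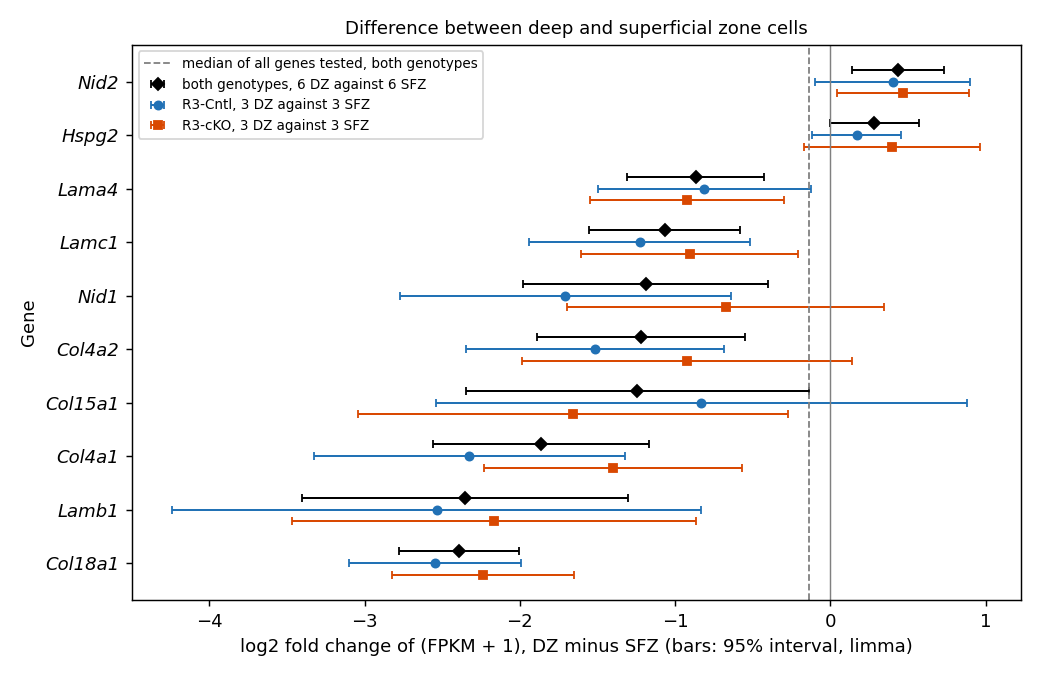
Difference between DZ and SFZ for each gene, as the log2 fold change of FPKM + 1 with its 95% interval (limma). Black diamonds are 6 against 6 libraries over both genotypes, and blue circles and orange squares are 3 against 3 within R3-Cntl and R3-cKO. The black points run from -2.39 for Col18a1 to 0.43 for Nid2, beside a median of -0.14 over all genes tested (dashed line).

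Both type IV collagen members were higher in SFZ. Col4a1, the alpha 1 chain, was at 43.25, 67.37 and 54.25 FPKM in R3-Cntl SFZ and 46.49, 32.16 and 76.93 in R3-cKO SFZ. The DZ levels of Col4a1 were 4.95, 10.36 and 18.65 FPKM (R3-Cntl) and 17.28, 13.92 and 23.46 FPKM (R3-cKO). All 6 SFZ libraries were above all 6 DZ libraries, and the SFZ mean was 3.62 times the DZ mean (log2 fold change -1.86, SE 0.32, adjusted p = 0.00319, limma). Col4a2, the alpha 2 chain, was at 41.89, 61.57 and 56.01 FPKM in R3-Cntl SFZ and 53.32, 30.58 and 84.06 in R3-cKO SFZ. In DZ it was at 11.92, 14.68 and 31.36 FPKM (R3-Cntl) and 27.8, 17.08 and 39.89 FPKM (R3-cKO), so that the 2 highest DZ libraries reached into the SFZ range. The log2 fold change of Col4a2 was -1.22 (SE 0.31, adjusted p = 0.0164, limma).

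The multiplexins differed from each other. Col18a1 had the largest fold change of the members and the smallest relative error. It was at 13.06, 16.06 and 8.48 FPKM in R3-Cntl SFZ and 13.04, 7.0 and 8.95 in R3-cKO SFZ, against 1.05, 1.15 and 1.59 in R3-Cntl DZ and 1.4, 1.44 and 0.82 in R3-cKO DZ. The zones did not overlap, and the SFZ mean was 8.94 times the DZ mean (log2 fold change -2.39, SE 0.18, adjusted p = 6.49e-05, limma). Slc19a1, on the opposite strand of the same locus, was at 10.5 to 16.2 FPKM over the 12 libraries. Col15a1 was far more variable, at 39.27, 10.76 and 5.01 FPKM in R3-Cntl SFZ and 20.49, 5.7 and 3.89 in R3-cKO SFZ. In DZ it was at 3.3, 10.2 and 9.51 FPKM (R3-Cntl) and 1.0, 1.92 and 2.84 FPKM (R3-cKO). The zones overlapped, and its log2 fold change of -1.24 (SE 0.50) had an adjusted p of 0.0961 (limma). It passed without R3-Cntl SFZ 3 (adjusted p = 0.0368, limma), and was -0.47 without the 3 SFZ libraries with the most Cdh5, an endothelial marker. Those were also the 3 SFZ libraries with the highest Col15a1, so leaving them out lowers the SFZ side by itself. That fit therefore cannot show a part of endothelial cells in the difference, which was not tested.

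All 3 laminin members were lower in DZ. Lamb1, the beta 1 chain, was at 14.3, 30.19 and 16.91 FPKM in R3-Cntl SFZ and 18.13, 11.6 and 50.03 in R3-cKO SFZ. Its DZ levels were 0.23, 2.7 and 8.63 FPKM (R3-Cntl) and 2.46, 5.3 and 5.22 FPKM (R3-cKO), all below every SFZ value (log2 fold change -2.35, SE 0.48, adjusted p = 0.00692, limma). The 6 DZ libraries nevertheless spread widely, with R3-Cntl DZ 1 lowest and R3-Cntl DZ 3 highest. Lamc1, the gamma 1 chain shared by most laminins, was at 30.19, 47.04 and 33.8 FPKM in R3-Cntl SFZ, 29.89, 30.94 and 49.13 in R3-cKO SFZ, 9.3, 19.07 and 18.59 in R3-Cntl DZ and 12.89, 24.41 and 20.23 in R3-cKO DZ. Again the zones did not overlap (log2 fold change -1.07, SE 0.22, adjusted p = 0.00738, limma). Lama4, the alpha 4 chain of vessel, muscle and fat basement membranes, was at 26.85, 37.93 and 18.81 FPKM in R3-Cntl SFZ, 25.73, 21.11 and 41.46 in R3-cKO SFZ, 11.82, 13.76 and 20.0 in R3-Cntl DZ and 12.29, 15.16 and 16.06 in R3-cKO DZ. The lowest SFZ library, R3-Cntl SFZ 3, was below the highest DZ library, R3-Cntl DZ 3 (log2 fold change -0.87, SE 0.20, adjusted p = 0.0116, limma).

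The nidogens, which join laminin to type IV collagen, went in opposite directions. Nid1 was at 33.51, 73.95 and 78.59 FPKM in R3-Cntl SFZ, 30.15, 68.53 and 47.07 in R3-cKO SFZ, 9.25, 22.64 and 23.42 in R3-Cntl DZ and 21.03, 49.67 and 21.93 in R3-cKO DZ. The zones were apart in R3-Cntl and overlapped in R3-cKO, where R3-cKO DZ 2 lay above 2 of the 3 SFZ libraries. Its log2 fold change was -1.19 (SE 0.36, adjusted p = 0.0347, limma), and of the 12 fits that left out 1 library, 8 lost the call (adjusted p up to 0.0866) and those without R3-Cntl SFZ 1, R3-cKO SFZ 1, R3-Cntl DZ 3 or R3-cKO DZ 2 kept it. Nid2 was at 98.12, 136.67 and 142.12 FPKM in R3-Cntl SFZ, 85.71, 110.12 and 112.97 in R3-cKO SFZ, 130.27, 181.75 and 186.47 in R3-Cntl DZ and 119.59, 148.35 and 160.03 in R3-cKO DZ. Its SFZ and DZ ranges did not overlap in R3-cKO and did in R3-Cntl. Nid2 had a log2 fold change of 0.43 (SE 0.13, adjusted p = 0.0382, limma), and 7 of the 12 fits lost the call (adjusted p up to 0.0808), while those without R3-Cntl SFZ 3, R3-cKO SFZ 2, R3-cKO SFZ 3, R3-Cntl DZ 1 or R3-cKO DZ 1 kept it. In the fit with a replicate block, Nid2 had an adjusted p of 0.00234 (limma). The numbers do not pair all libraries of that fit, since r between zones in R3-Cntl was 0.11 and -0.15 for numbers 2 and 3. In R3-cKO, where the numbers were taken as pairs, the SFZ value of Nid2 was 0.717, 0.742 and 0.706 of the DZ value. Between same-numbered libraries of R3-Cntl, where they were not, it was 0.753, 0.752 and 0.762.

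Hspg2 had the smallest coefficient of variation of the members in 3 groups (3.46 to 8.73%) but not in R3-cKO SFZ (30.6%, against 14.6% for Nid2). It was at 128.71, 121.47 and 143.95 FPKM in R3-Cntl SFZ, 111.9, 145.86 and 77.5 in R3-cKO SFZ, 139.08, 147.51 and 156.14 in R3-Cntl DZ and 145.43, 145.86 and 137.09 in R3-cKO DZ. The ranges overlapped, with R3-cKO SFZ 3 the lowest library. The log2 fold change of Hspg2 was 0.28 (SE 0.13, adjusted p = 0.141, limma). Counted from the median of all genes, -0.14, the estimates were 0.42 for Hspg2 and 0.57 for Nid2, against -2.25 for Col18a1 and -0.73 for Lama4. With median-of-ratios scaling, under which the median of all genes was near 0, Hspg2 passed the threshold (0.45, adjusted p = 0.0329, limma) and Nid1 did not (adjusted p = 0.0617), nor did Nid1 without a low-value filter (adjusted p = 0.0501). Hspg2 also passed without R3-cKO SFZ 2 (adjusted p = 0.0479, limma). The 10 directions held under the other scalings, filters and pseudocounts tried, where the gene was tested.

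Within each genotype the zone comparisons use different libraries, although each shares its libraries with the comparison over both. In R3-Cntl, 1 member, Col18a1, passed the adjusted threshold (log2 fold change -2.55, SE 0.23, adjusted p = 0.0309, limma), where 1.24% of 11336 genes did. Those that passed and were lower in DZ made up 1.09% of all genes tested. At an unadjusted p under 0.05, 7 members were lower in DZ, where 22.4% of genes were. Estimates were below 0 for 8 members and for 72.0% of genes. Col4a1 had a log2 fold change of -2.33 (SE 0.42, adjusted p = 0.0562, limma) and Lamb1 of -2.54 (SE 0.71, adjusted p = 0.0990, limma). 6 members were lower with no overlap, beside 26.5% of genes. The Col18a1 call was lost without a low-value filter (adjusted p = 0.0639), with quantile scaling (adjusted p = 0.0568) and without R3-Cntl SFZ 2 or any of the 3 R3-Cntl DZ libraries.

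In R3-cKO, no member passed in the fit without pairing, in which 0.0176% of 11336 genes did. At an unadjusted p under 0.05, 6 members were lower in DZ, as were 11.1% of genes, and Nid2 was higher, as were 3.03% (log2 fold change 0.47, SE 0.17, adjusted p = 0.315, limma). The largest estimate was again that of Col18a1 (-2.24, SE 0.24, adjusted p = 0.0736, limma). Estimates were below 0 for 8 members and for 65.4% of genes. 6 members were lower with no overlap of the libraries, beside 16.8% of genes, and Nid2 was higher with no overlap, beside 4.24%. In the fit with the replicate number as a block, Col4a1 (-1.40, SE 0.12, adjusted p = 0.0312), Col4a2 (-0.93, SE 0.084, adjusted p = 0.0335) and Col18a1 (-2.24, SE 0.19, adjusted p = 0.0315, limma) were lower in DZ, beside 3.11% of genes. No member passed the adjusted threshold for a difference between genotypes in its zone difference. Without the block, the smallest unadjusted p of the interaction was 0.152 (limma), for Col4a1. Its zone difference was smaller in R3-cKO by 0.92 on the log2 scale (SE 0.60), and all adjusted p were 0.999. Intervals were wide, as for Nid1 (1.03, 95% interval -0.47 to 2.54). At an unadjusted p under 0.05, 0.841% of 11765 genes and no member passed, and 2 members and 40.8% of genes had an estimate below 0. With the block, 949 genes passed at that level. Of the members, Nid1 (unadjusted p = 0.000916, adjusted p = 0.385) and Col4a1 (0.0407 and 0.603, limma) did. The replicate numbers do not pair all libraries of that fit.

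Several proportions of related chains also differed by zone. Because they are ratios within a library, they do not depend on the scaling between libraries. They are built in part from the members whose zone differences are given above, in the same libraries. Their p-values are therefore not separate support for those differences. How often other gene pairs differ by zone in this way was not examined. The Col4a2 to Col4a1 ratio was 0.914 to 1.15 in SFZ (median 1.0) and 1.23 to 2.41 in DZ (median 1.65), with no overlap. The Nid2 to Nid1 ratio was 1.61 to 2.93 in SFZ (median 2.12) and 2.99 to 14.1 in DZ (median 7.63), also apart. Within DZ it was 7.96 to 14.1 in R3-Cntl and 2.99 to 7.30 in R3-cKO, so the genotypes did not overlap. This genotype difference was not tested. Of single genes, 8.03% of the 11091 tested in DZ were apart by genotype, and neither Nid1 nor Nid2 was among them. The zone differences of both ratios had p = 0.005 (adjusted 0.00625) in an exact permutation test of the zone labels within genotype, two-sided, over 400 arrangements and 5 quantities, and 0.005 is the smallest p it can give. Not tested, and not among the 5, were the ratios of Lamc1 to Lamb1 (0.982 to 2.67 in SFZ, 2.15 to 40.4 in DZ), Lama4 to Lamb1 (0.829 to 1.88 and 2.32 to 51.4) and Col15a1 to Col18a1 (0.435 to 3.01 and 0.714 to 8.87). The first and last of these overlapped between zones.

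Among laminin beta chains, Lamb1 made up 16.4 to 49.0% of the summed FPKM in SFZ and 0.716 to 15.6% in DZ (p = 0.005, adjusted 0.00625, exact permutation test). The remainder was mostly Lamb2, the beta 2 chain, with a mean share of 68.6% in R3-Cntl SFZ and 79.7% in R3-Cntl DZ. Among alpha chains, the share of Lama4 was 70.8 to 85.7% in SFZ and 57.9 to 75.0% in DZ, with overlap (p = 0.015, adjusted 0.015, exact permutation test). Its DZ share was 65.2 to 75.0% in R3-Cntl, where the zones overlapped, and 57.9 to 63.4% in R3-cKO, where they did not. Lama5, the second alpha chain, had mean shares of 11.7% in R3-Cntl SFZ and 24.7% in R3-Cntl DZ, and of 12.3% in R3-cKO SFZ and 35.5% in R3-cKO DZ. The R3-Cntl SFZ mean rested on R3-Cntl SFZ 3 (23.3%), beside 5.42% and 6.35% in R3-Cntl SFZ 1 and 2. Lamc1 made up 94.4 to 96.6% of gamma chain FPKM on average in all 4 groups. Col4a5, a chain of the alpha 3-4-5 and alpha 5-6 type IV collagens, was 4.67 to 15.0% of type IV collagen FPKM in SFZ and 21.5 to 32.3% in DZ (p = 0.005, adjusted 0.00625, exact permutation test), while Col4a5 itself was at 4.21 to 19.61 FPKM in SFZ and 4.82 to 21.52 FPKM in DZ.

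**Figure D3:**
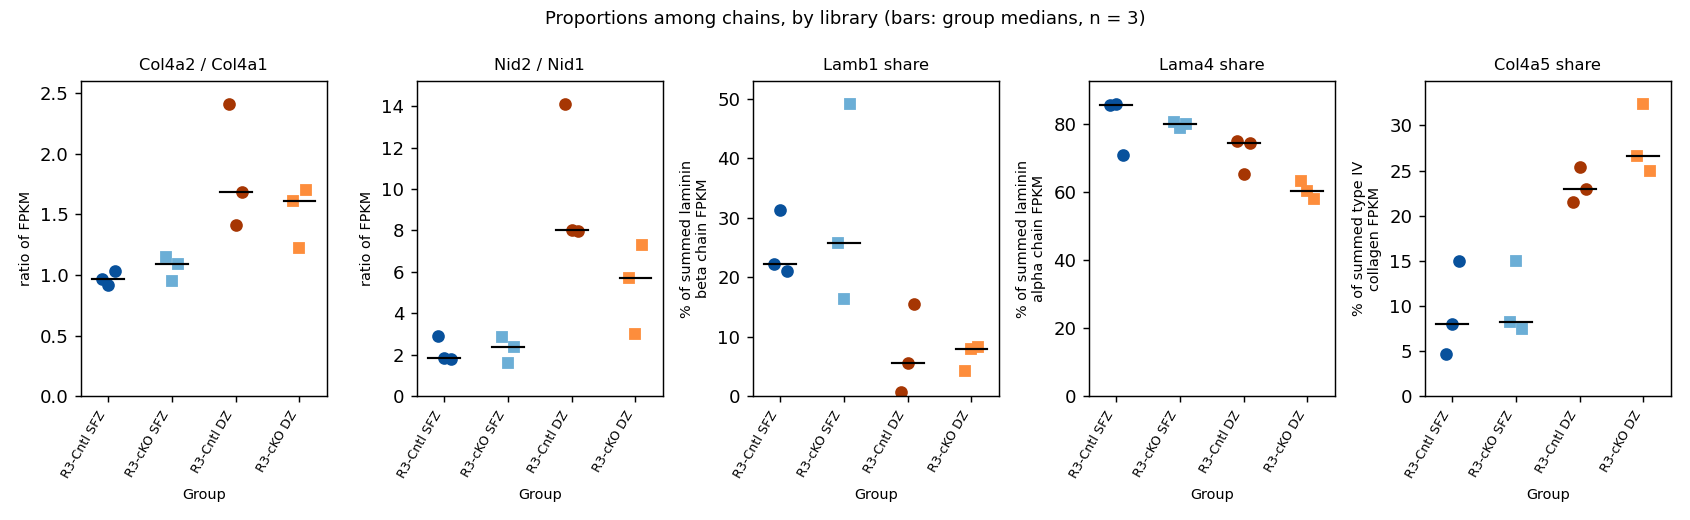
Ratio of Col4a2 to Col4a1, ratio of Nid2 to Nid1, and the percentage of summed FPKM taken by Lamb1 among laminin beta chains, Lama4 among laminin alpha chains and Col4a5 among type IV collagen chains. Points are libraries, bars are group medians (n = 3) and each axis starts at 0. The SFZ and DZ libraries do not overlap in any panel but that of Lama4.

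Some markers of other cell types differed by zone, and their part in these differences was not tested. Beside the counts below, 18.9% of all genes tested passed lower in DZ and 4.3% passed higher. Of 18 endothelial markers, 4 reached the level needed for testing and 2 of them were lower in DZ, and the summed level of the list was 28.8 to 38.3 FPKM in SFZ and 11.3 to 23.4 FPKM in DZ. The defining endothelial genes Cdh5, Pecam1, Kdr and Emcn were at 0 to 1.58 FPKM in SFZ and 0 to 0.31 FPKM in DZ, where Emcn was at 0 in all 6 libraries. Of 12 fibroblast markers 11 were tested and 9 were lower in DZ, with sums of 3992 to 11524 FPKM in SFZ and 531 to 2950 FPKM in DZ. All 11 macrophage markers tested were lower in DZ (sums of 7.97 to 207 against 3.58 to 27.4 FPKM). For mural cells (pericytes and smooth muscle) 2 of 7 tested were lower (222 to 743 against 207 to 651 FPKM), for adipocytes 1 of 5 was lower, for osteoblasts 3 of 7 were lower, for Schwann cells 2 of 5 were higher, and no skeletal muscle or keratinocyte marker passed. Of the superficial zone markers, 4 of 6 tested were lower in DZ, and 12 of 14 chondrocyte markers were higher.

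Left out of the zone comparison in turn were the libraries that stand apart. Without the 3 SFZ libraries with Cdh5 above 0.5 FPKM (R3-Cntl SFZ 1 and 2 and R3-cKO SFZ 1), 579 genes and 1 member passed, Col18a1 (log2 fold change -2.04, adjusted p = 0.00129, limma). Among the members whose calls were lost, estimates were -2.32 for Lamb1, -1.78 for Col4a1, -1.42 for Nid1, -1.17 for Col4a2, -1.07 for Lamc1, -0.73 for Lama4 and 0.29 for Nid2. They stayed near those with all 12 libraries, except that Nid2 was at 0.43 there. Their adjusted p were 0.0531 to 0.289 (limma), with 9 libraries in place of 12. The estimate of Col15a1, not called with all 12 libraries, was smaller without these libraries, as given above. They were also the SFZ libraries with the highest Col15a1, so their removal lowers the SFZ side by itself. Without the 4 R3-cKO libraries in which Y-linked genes were near 0, 1276 genes and 5 members passed, and the 3 members whose calls were lost had estimates of -1.41 (Nid1), -0.86 (Lama4) and 0.42 (Nid2).

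Other genes of the same pathways were counted from lists of known components, receptors and processing enzymes. As shares of all genes tested, 18.9% passed lower and 4.3% passed higher in DZ. Of 29 other basement membrane chains and components, 19 were tested between zones over both genotypes, and 7 (lower) and 0 (higher) passed. They included Egfl6 (log2 fold change -3.26), an integrin ligand, Fbln2 (-2.75) and Fbln1 (-1.28), which encode fibulins that bind nidogen and perlecan, and Npnt (-2.39), which encodes nephronectin, an integrin ligand. The median of the tested components was -0.33. In R3-Cntl alone, Fbln2 passed (-3.68, adjusted p = 0.0480, limma).

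Of 18 receptors, 17 were tested, and 6 were lower and 3 higher in DZ. Itga1 (-0.94), the alpha 1 subunit of a collagen-binding integrin, and Sdc1 (-0.60), a cell surface heparan sulphate proteoglycan, were lower. Bcam (1.16), a receptor for the laminin alpha 5 chain, and Ddr1 (0.58), a collagen-activated tyrosine kinase, were higher. Of 23 genes for assembly and processing, 22 were tested, and 4 were lower and 4 higher, with the share that was lower close to that of all genes. Mmp14 (-1.57), a membrane-bound metalloproteinase, and Pxdn (-1.18), the peroxidase that cross-links type IV collagen, were lower, whereas Loxl2 (1.53), a lysyl oxidase, and Plod2 (1.30), a collagen lysyl hydroxylase, were higher. Plod2 was also higher in R3-Cntl alone (1.52, adjusted p = 0.0338, limma). The medians of the tested receptors and assembly genes were -0.33 and -0.12, beside -0.14 over all genes.

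The libraries labelled R3-cKO were compared with R3-Cntl in each zone. In SFZ, none of 11537 genes passed the adjusted threshold (limma), 0.295% had an unadjusted p under 0.05, and no member did either. That share depends on the libraries used. Without R3-cKO SFZ 2, 1204 of 11436 genes had an unadjusted p under 0.05, against 34 with all SFZ libraries and 12 to 101 without any other single library. No member's libraries were apart by genotype, as 2.4% of genes' were. The estimates were below 0 for 8 members, as for 52.5% of genes, and their median was -0.21 beside -0.01 over all genes. The log2 fold change of Nid2 was -0.28 (SE 0.19). Col15a1 had a log2 fold change of -0.67 with a 95% interval of -2.70 to 1.36, so without pairing the SFZ libraries do not limit a change of this gene closely. Between same-numbered libraries, the R3-Cntl value was 1.92, 1.89 and 1.29 times the R3-cKO value. With the replicate block, Col15a1 had an unadjusted p of 0.0144 and an adjusted p of 0.999 (limma), and 51 genes had an unadjusted p under 0.05. The numbers were not taken as pairs in SFZ, where r was 0.79, -0.09 and -0.42. With libraries near 0 for Y-linked genes left out (R3-cKO SFZ 2 and 3), which leaves 3 libraries against 1, the Col15a1 estimate was 0.60. The library left, R3-cKO SFZ 1, had the highest Col15a1 of its group (20.49 FPKM), so a higher estimate had to follow.

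In DZ, none of 11091 genes passed the adjusted threshold (limma) and 3.64% had an unadjusted p under 0.05. As shares of all genes tested, 1.15% were lower and 2.5% higher in R3-cKO at that level. 1 member was among them. Col15a1 was at 3.3, 10.2 and 9.51 FPKM in R3-Cntl DZ and at 1.0, 1.92 and 2.84 FPKM in R3-cKO DZ. All 3 R3-cKO libraries were below all 3 R3-Cntl libraries, as for 2.78% of genes, and the R3-Cntl mean was 3.99 times the R3-cKO mean. The log2 fold change of Col15a1 was -1.50 (SE 0.42, 95% interval -2.51 to -0.49, unadjusted p = 0.0102, adjusted p = 0.999, limma). Between same-numbered libraries of R3-Cntl and R3-cKO, the ratio was 3.3, 5.31 and 3.35.

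With the replicate number as a block, Col15a1 had an unadjusted p of 0.000302 and an adjusted p of 0.117 (limma), and 6 members had an unadjusted p under 0.05, where 16.5% of genes did. The estimate lay between -1.94 and -1.25 with 1 library left out, and was -1.99 without R3-cKO DZ 2 and 3, in which Y-linked genes were near 0, a fit that sets 3 libraries against 1. The library left, R3-cKO DZ 1, had the lowest Col15a1 of its group (1.0 FPKM), so a larger estimate had to follow. That fit cannot show the part of sex, which was not tested. The study itself listed Col15a1 among the genes lower in R3-cKO DZ cells from these libraries, so this value is not independent evidence. The difference between the genotype effects in DZ and SFZ was -0.83 (SE 1.02) for Col15a1 and did not pass, so a change particular to DZ is not shown.

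**Figure D4:**
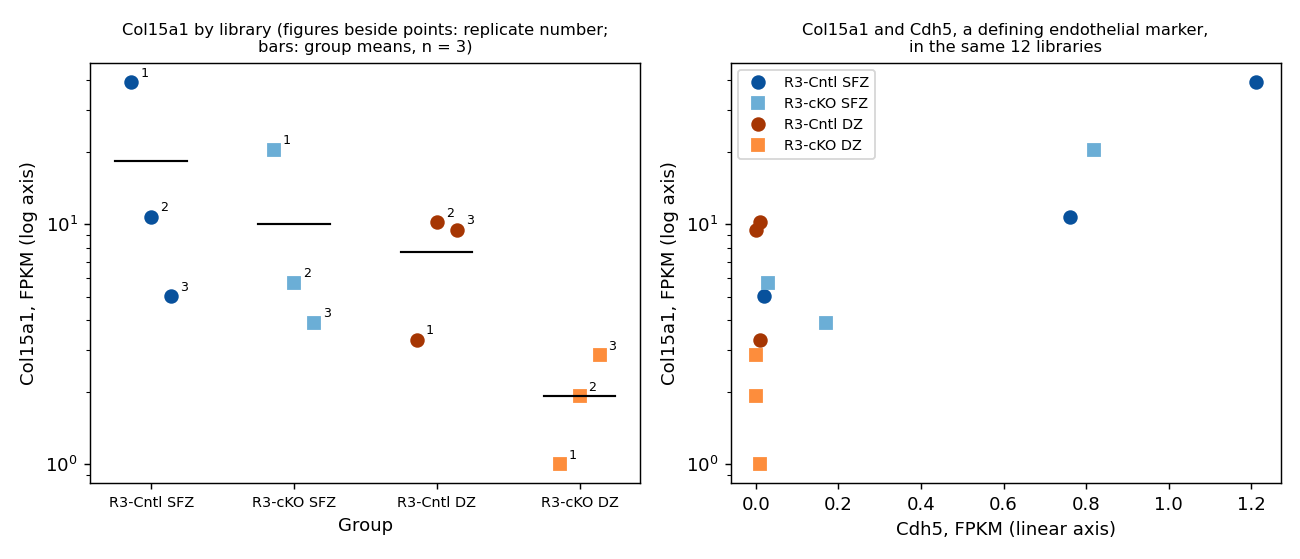
Left, Col15a1 in FPKM (log axis) by group, with bars at the group means (n = 3) and the replicate number beside each point. Right, the same 12 values against the FPKM of Cdh5, a defining endothelial marker (linear axis). The 3 R3-cKO DZ libraries, at 1.0 to 2.84 FPKM, lie below the other 9, and the 3 highest SFZ libraries are those with Cdh5 above 0.5 FPKM.

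Some markers of other cell types varied with Col15a1 in SFZ and others did not. The 3 SFZ libraries with the highest Col15a1, R3-Cntl SFZ 1, R3-cKO SFZ 1 and R3-Cntl SFZ 2 (39.27, 20.49 and 10.76 FPKM), had Cdh5 at 1.21, 0.82 and 0.76 FPKM, against 0.02 to 0.17 FPKM in the other 3. The summed macrophage markers were at 207, 174 and 174 FPKM in these 3 libraries and at 7.97 to 82.0 FPKM in the other SFZ libraries. The most abundant endothelial marker, Eng, did not follow, at 20.27 FPKM in R3-Cntl SFZ 1 and 31.49 FPKM in R3-cKO SFZ 2, and the summed endothelial list was at 34.5 and 35.7 FPKM in these libraries. In DZ, Cdh5 was at 0 to 0.01 FPKM in all 6 libraries.

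No marker of the cell type lists passed the adjusted threshold between genotypes in DZ. Some did at an unadjusted p under 0.05, where 1.15% of all genes were lower and 2.5% higher in R3-cKO. Estimates were below 0 for 37.7% of all genes. Of 7 osteoblast markers tested, 4 were lower in R3-cKO at that level, namely Alpl (log2 fold change -1.63, unadjusted p = 0.00106, limma), Bglap, Bglap2 and Sp7, and the median of the list was -0.88. Of 14 chondrocyte markers, 13 had an estimate below 0, with a median of -0.62, and 2 passed at that level, Hapln1 (-0.72) and Col11a2 (-0.69). Of 6 mural cell markers tested, 4 had an estimate above 0 and 2 below, with a median of 0.62, and Acta2 (1.76) and Tagln (1.93) passed at that level. Of 3 keratinocyte markers tested, all above 0, Perp (0.82) passed, and of 2 macrophage markers, both below 0, Lyz2 (-1.15) did. In SFZ, Alpl (-0.92), Sp7 (-0.74) and Prg4 (-1.45), a superficial zone marker, were lower in R3-cKO at that level and Perp (0.96) was higher, where 0.295% of all genes passed. The part of these markers in the Col15a1 difference was not tested.

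For Col4a1, Col4a2, Nid1 and Lamb1 the DZ intervals were wide. Col4a1 was at a mean of 11.3 ± 6.90 FPKM in R3-Cntl and 18.2 ± 4.84 in R3-cKO (SD, n = 3), and Nid1 at 18.4 ± 7.97 and 30.9 ± 16.3 FPKM. The estimates were 0.78 for Col4a1 (SE 0.43), 0.70 for Nid1 (SE 0.45), 0.57 for Col4a2 (SE 0.42), 0.54 for Lamb1 (SE 0.71) and 0.30 for Lamc1 (SE 0.33), and none had an unadjusted p under 0.05 without the block. The estimate for Nid2 was -0.21 (SE 0.19). With the block, the unadjusted p of Lamc1 was 0.0206, of Col4a2 0.0330, of Col4a1 0.0341, of Nid1 0.0386 and of Nid2 0.0399, with adjusted p of 0.245 to 0.288 (limma). Between same-numbered libraries, R3-cKO was the higher in all 3 pairs for Col4a1, Col4a2 and Lamc1, in 2 of 3 for Nid1 and in none for Nid2. The 95% intervals without the block ran from -0.32 to 0.22 for Hspg2 (-0.05), -0.47 to 0.41 for Col18a1 (-0.03) and -0.54 to 0.46 for Lama4 (-0.04). The median over the members was 0.13, beside 0.05 over all genes, and 5 members and 37.7% of genes had an estimate below 0.

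Among the related lists in DZ, no gene passed the adjusted threshold (limma). At an unadjusted p under 0.05, 3 of 15 components tested were higher in R3-cKO, where 2.5% of all genes were: Fbln2 (log2 fold change 1.60), Col4a5 (0.95) and Col4a6 (0.40), the alpha 5 and alpha 6 chains of type IV collagen. Of 16 receptors, the integrin subunits Itga3 (1.17) and Itga2 (0.97) and the collagen receptor Ddr1 (0.38) were higher at that level, as was Lox (2.15), which encodes a lysyl oxidase, of 21 assembly genes. The adjusted p was 0.999 for each.

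Across the 12 libraries, which share zone and genotype groups, several members followed each other. As a description, Pearson's r of log2 (FPKM + 1) was 0.96 between Col4a1 and Col4a2, 0.96 between Col4a1 and Lamb1 and 0.96 between Lamb1 and Lamc1. It remained at 0.93, 0.92 and 0.87 once the group means were removed. Nid1 and Nid2 had an r of -0.16 over all libraries and 0.81 with group means removed: libraries high in one were high in the other within a group, although the zones differed in opposite directions. Hspg2 had negative values with Col4a1 (-0.60) and Col4a2 (-0.65) over all libraries. With group means removed, they were -0.43 and -0.51 over all libraries, -0.90 and -0.89 in SFZ, and 0.61 and 0.34 in DZ. The negative relation was thus not seen within DZ.

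Among 11359 genes, those most like Col4a1 over the 12 libraries were Mex3d (r = 0.99), Ehmt2, Dzip1, Gstm2 and Ppp1r9b, and Lamb1 and Col4a2 stood at ranks 28 and 30. Rbm33 (0.95), Bcl7a, Msl2, Lrig2 and Pogz were most like Col15a1. For Nid2 they were Fxyd3 (0.87), Bcl3, Ago3, Ssr3 and Lman1, and for Hspg2 Slc43a3 (0.96), Tmem128, Cdc42se1, Trib1 and Pigf.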

How the data were processed

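RNA was sequenced on a BGISEQ-500 as 100-base paired reads, and the submitters' processing notes name mm9 and Bowtie 0.12.2. The authors deposited 1 table of FPKM values, scaled by TMM factors, for 17536 genes in 12 libraries; the deposited values were taken as linear FPKM because they are not whole and do not sum to a constant. All 12 columns were matched to samples by name. Littermates gave the libraries, and SFZ and DZ libraries may share animals. The p-values cover the spread between libraries and, without the replicate block, treat them as separate. Tests were run in limma 3.58.1 (R 4.3.3) on log2(FPKM + 1), with a pseudocount of 1, for genes that reached 1 FPKM in 3 or more compared libraries; such fold changes understate those of low genes. R3-cKO was compared with R3-Cntl in each zone, DZ with SFZ in each genotype and over both with genotype as a term, and the interaction in a model of all 12. P-values were adjusted over all genes tested by the Benjamini-Hochberg method, with a threshold of 0.05. The code was tested on simulated data.

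Chain ratios were compared on the log2 scale by exact permutation of zone labels within genotype. Summaries used Python 3.11.15, pandas 2.3.3 and NumPy 2.4.6, and plots matplotlib 3.10.9. Members, lists and markers were chosen with earlier results of these data known. Named genes of the other lists are up to 4 per list and comparison with the largest change among those past the threshold, or past an unadjusted p under 0.05 where none passed; genes most alike are the 5 highest Pearson r for Col4a1, Col15a1, Nid2 and Hspg2.

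Same-numbered libraries deviated together from their group means in the genotype comparison in DZ (r = 0.65, 0.78 and 0.69 over 11359 genes) and in the zone comparison in R3-cKO (0.42, 0.78 and 0.65), so the numbers were taken as pairs there. The alternatives were other pseudocounts, filters and scalings, the replicate block, a model of all 12 libraries and leaving out libraries.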

Additional observations from a re-analysis of the deposited data

Results flagged for a closer look

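Among the 20 sets of 6 libraries of 1 zone examined (10 genes in SFZ and DZ), 1 held a library far from the others: Nid1 in R3-cKO DZ 2 was at 49.67 FPKM. The gap to the nearest DZ library was 0.649 of the range of the 6, above Dixon's 95% critical value for 6 values. Chance puts about 1 in 20 such sets past this limit.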

How the results depend on the processing

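In the zone comparison over both genotypes, the 10 members kept their direction, where tested, under every planned pseudocount, filter, scaling and block, and only Nid1 (no filter, median-of-ratios scaling) lost and only Hspg2 (median-of-ratios scaling) gained a call. 2725 genes passed, against 1162 among genes averaging 10 FPKM or more. Quantile and median-of-ratios scaling moved the median of all genes from -0.14 to 0.034 and 0.0032 and the calls from 506 higher and 2219 lower to 1237 and 915, and 1050 and 1080. Leaving out 1 library gave 6 to 8 members, 1624 to 2899 genes and a member median of -1.30 to -1.01, with the lowest gene count without R3-Cntl SFZ 2. Leaving out sets of libraries, chosen after seeing the data, gave 1276 genes and 5 members without the 4 with Y-linked genes near 0, and 579 and 1 without the 3 with high Cdh5, with member medians of -1.39 and -1.12.

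Within R3-Cntl, 140 genes and 1 member passed, against 0 and 0 with no filter, 8 and 0 among genes averaging 10 FPKM or more, 1 and 0 with quantile scaling, 17 genes with median-of-ratios scaling, and 88 and 29 with pseudocounts of 0.1 and 5. Col18a1, the member called, averages under 10 FPKM in R3-Cntl (12.5 in SFZ, 1.26 in DZ) and was not tested under that filter. A model of all 12 libraries gave 798 and 3. Leaving out 1 library gave 0 to 505 genes, 0 to 3 members and a member median of -1.64 to -1.08; the highest counts were those without R3-Cntl SFZ 1, and each of the other libraries left at most 4 genes. The numbers do not pair the samples there (r = 0.58, 0.11 and -0.15), and the replicate block gave 831 genes and 5 members. Within R3-cKO, 2 genes and 0 members passed, against 7 with no filter, 0 among genes averaging 10 FPKM or more, 1 with either pseudocount, 165 and 1 in the model of all 12, 352 and 3 with the replicate block, and 0 to 5 genes and 0 members with 1 library left out. The block changed no other call. At an unadjusted p under 0.05, quantile and median-of-ratios scaling moved the genes lower in DZ from 2542 to 1098 and 1308 in R3-Cntl. Those higher in DZ moved from 560 to 1685 and 1339. In R3-cKO the lower genes moved from 1258 to 669 and 711, and the higher ones from 344 to 702 and 669.

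With the Y-low and high-Cdh5 libraries left out, the log2 zone difference of Col4a2 to Col4a1 was 0.69 and 0.67, of the Lamb1 share -2.61 and -2.26, of the Lama4 share -0.26 and -0.19, of Nid2 to Nid1 1.59 and 1.88 and of the Col4a5 share 1.60 and 1.02. These p were 0.025 to 0.15 (exact permutation), 0.05 being the smallest possible without the Y-low libraries.

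Genotype estimates in SFZ changed sign without the Y-low libraries for Col4a2 (0.022), Col15a1 (0.60), Col18a1 (0.094), Lama4 (-0.056) and Lamb1 (-0.10), and in DZ for Col18a1 (0.092), Lamb1 (-0.027) and Lamc1 (-0.20). With 1 library left out, the SFZ ranges that crossed 0 were -0.47 to 0.14 for Col4a1, -0.37 to 0.35 for Col4a2, -1.31 to 0.082 for Col15a1, -0.19 to 0.32 for Lama4, -0.40 to 0.61 for Lamb1 and -0.25 to 0.16 for Lamc1. In DZ they were -0.11 to 0.10 for Col18a1, -0.19 to 0.16 for Lama4, -0.22 to 1.27 for Lamb1 and -0.019 to 0.54 for Lamc1, and for the interaction -0.10 to 0.23 for Nid2, -0.36 to 0.15 for Lama4, -0.39 to 1.09 for Lamb1 and -0.0099 to 0.44 for Hspg2. At an unadjusted p under 0.05, leaving out 1 library gave 12 to 1204 genes in SFZ, 211 to 773 in DZ and 36 to 714 for the interaction. With all libraries these counts were 34, 404 and 99. The causes were not tested.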
